A study of Mus musculus with 18 samples.

Results

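The genes described here are 44 components of the bone morphogenetic protein (BMP) and transforming growth factor beta (TGF-β) pathways, chosen by gene symbol. All 44 were found among the 27179 Entrez gene identifiers of the tables, and all 44 had at least 1 count in an induced library, so all were among the 20944 genes tested. They comprise 13 ligands, 10 receptors, 8 SMADs, 8 extracellular modulators, and a group of 5 with the pseudoreceptor Bambi and the 4 Id genes.

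RNA was sequenced from mouse embryonic stem cells differentiated as embryoid bodies towards spinal motor neurons, in 6 groups of 3 libraries. The day 2 progenitors came from the iCre line and carried no induced Hox gene. The other 5 groups were neurons of day 4. Control neurons were the iHoxc6 line without doxycycline (Dox), and iHoxc6, iHoxc8, iHoxc9 and iHoxc10 neurons had received 3 µg/ml Dox for 48 h. All lines, iCre included, derive from Ainv15 cells, and each iHox line carries a single-copy, Flag-tagged transgene at the Hprt locus under a Dox-inducible promoter, which is not restricted to neurons. All 6 groups, day 2 included, received 1 µM retinoic acid and 0.5 µM SAG, an agonist of the Sonic hedgehog pathway, from day 0. No BMP or TGF-β ligand was part of the labelled treatment of any group. A day 4 control without Dox from the iHoxc8, iHoxc9 or iHoxc10 lines was not analysed here. Every induced group received Dox and no other group did. Against control, Dox itself and the induced gene therefore cannot be told apart.

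BMP and TGF-β family ligands are secreted dimers that bring together type I and type II serine/threonine kinase receptors. The type I receptor then phosphorylates receptor SMADs, SMAD1, SMAD5 and SMAD9 on the BMP side and SMAD2 and SMAD3 on the TGF-β and activin side, and these enter the nucleus with SMAD4 to regulate transcription. Inhibitory SMADs, secreted antagonists and the pseudoreceptor BAMBI dampen the pathway, and the Id genes, which encode inhibitors of basic helix-loop-helix factors, are classic BMP targets. In the developing spinal cord, BMPs are best known as dorsal signals from the roof plate, while motor neurons arise ventrally.

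Total counts per library ranged from 24498630 to 33168533, and 3 counts in a library corresponded to 0.0904 to 0.122 CPM (counts scaled to library depth with TMM factors). This floor reflects counting error alone. As a check of the labels, Hoxc6 was at 514 ± 16.2 CPM in iHoxc6, Hoxc8 at 389 ± 25.4 CPM in iHoxc8, Hoxc9 at 224 ± 11.2 CPM in iHoxc9 and Hoxc10 at 430 ± 4.22 CPM in iHoxc10 (SD, n = 3). The counts do not separate transgene from endogenous transcripts. Library names in the labels carried 4 prefixes, shared by control and iHoxc6 and by iHoxc9 and iHoxc10, while day 2 and iHoxc8 each had their own. Outside those pairs, the prefix, the line and the condition cannot be told apart. Between iHoxc9 and iHoxc10, which share a prefix, the line and the induced gene cannot be told apart either. Summed neuron markers (Tubb3, Map2, Elavl3, Dcx, Stmn2 and Snap25) lay at 280 to 574 CPM at day 2 and at 5395 CPM or more in every day 4 library, and summed motor neuron markers at 19.1 to 45.0 CPM and at 298 to 571 CPM. Roof plate and dorsal progenitor markers summed to at most 3.06 CPM in every library, with 8 genes in the list. Library 2 of the control stood apart. Its cycling markers summed to 952 CPM against 590 and 470 CPM in the other control libraries, and its neural progenitor markers to 1555 CPM against 902 and 828 CPM, so the counts of genes called against control are also given without it. In bulk RNA, fewer cells of a type and less RNA per cell cannot be told apart.

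Most of the signaling machinery was expressed throughout. Of the 44 genes, 27 lay above 1 CPM in all 6 groups and 17 above 10 CPM. Those 17 included receptors of both branches (Bmpr1a, Bmpr2, Acvr1, Acvr1b, Acvr2a, Acvr2b and Tgfbr1), the receptor SMADs Smad1, Smad2, Smad3 and Smad5, the common Smad4, the ligand Bmp7 and the targets Id2 and Id3. Per kilobase of exon, the highest level in control neurons was that of Id3 at 45.8 CPM per kb, followed by Tgfbr1 at 22.5 and Smad4 at 21.4 CPM per kb. At the other end, 9 genes stayed under 1 CPM in every group (Bmp4, Bmp5, Tgfb1, Inhba, Inhbb, Gdf3, Nodal, Chrdl2 and Grem1), and Chrdl2 and Nodal had at most 3 counts in any library, so no change in them was detectable at this depth. BMP4, a roof plate ligand in the embryo, thus lay between 0.0405 and 0.656 CPM over the 18 libraries, whereas Bmp7 lay between 11.4 and 104 CPM.

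The first comparison asked how the pathway changed from day 2 progenitors to day 4 neurons without an induced Hox gene. At an adjusted p under 0.01, which is what "passed", "rose" and "fell" mean throughout, 10 of the 44 genes rose and 7 fell. This is 38.6%, against 42.4% of all genes tested (21.2% higher and 21.2% lower), and without control library 2 it was 9 and 8, against 41.4% of all genes. The median log2 fold change of the 44 was -0.06, against 0.00 over all genes. Beyond a log2 fold change of 2 were 4 of the 44, with or without control library 2, and 12.6% of all genes. Neuron, motor neuron and cycling markers moved between the same groups, with all 6 neuron and all 7 motor neuron markers higher and all 5 cycling markers lower on day 4. Their part in these changes was not tested.

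Among the ligands, Bmp2 fell and Bmp6 and Bmp7 rose. Bmp2 was at 1.21, 1.46 and 2.62 CPM in the day 2 libraries and at 0.193, 0.116 and 0.0749 CPM in control, a log2 fold change of -3.72 ± 0.47 (SE, adjusted p = 6.38e-07 by edgeR). Bmp6 went from 0.472, 0.499 and 0.968 CPM to 1.99, 1.58 and 2.36 CPM (1.60 ± 0.37, adjusted p = 0.00085 by edgeR). Bmp7 went from 11.4, 12.4 and 23.3 CPM to 37.9, 25.5 and 34.1 CPM (1.05 ± 0.20, adjusted p = 0.000115), and its call was lost with only the 2 groups in the fit (0.0105). In each of these 3 genes the libraries of the groups did not overlap, although for Bmp7 library 3 of day 2 reached 23.3 CPM beside the lowest control library at 25.5 CPM. Tgfb3 rose from a mean of 1.88 to 3.42 CPM (0.86 ± 0.19, adjusted p = 0.000411 by edgeR), and its call was lost with only the 2 groups in the fit (0.0199). Bmp5 fell from 0.583 to 0.142 CPM, but 46.7% of its exon bases are shared with Gm26903 on the opposite strand and the strand setting of the counting is not given in the sources used here, so its reads are uncertain. The Bmp5 call was lost without control library 1 (adjusted p = 0.0188), 2 (0.0156) or 3 (0.0255) or day 2 library 1 (0.0442), and with only the 2 groups in the fit (0.0124).

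Receptors moved in both directions. Acvr1b, the type I receptor for activin and nodal, was at 19.4, 22.3 and 23.7 CPM at day 2 and at 78.8, 76.6 and 83.4 CPM in control (1.87 ± 0.12, adjusted p = 1.52e-11 by edgeR), and the replicates of each group lay close together. The BMP type I receptor Bmpr1a was at 210, 170 and 108 CPM at day 2 and at 62.4, 60.8 and 47.9 CPM in control (-1.51 ± 0.22, adjusted p = 5.04e-06), with day 2 library 3 the lowest of its group. Bmpr1b, the second BMP type I receptor, was much lower, with means of 2.50 ± 0.451 CPM at day 2 and 1.76 ± 0.438 CPM in control, and did not pass. The coreceptor betaglycan, Tgfbr3, fell from 9.33 to 3.67 CPM (-1.35 ± 0.22). The type II receptor Bmpr2 passed narrowly, rising from 10.8 to 18.1 CPM (0.75 ± 0.23, adjusted p = 0.00957). It did not pass without control library 1 (adjusted p = 0.0297) or 2 (0.0415), or without day 2 library 1 (0.0185), 2 (0.0192) or 3 (0.0383). With only the 2 groups in the fit its adjusted p was 0.0153.

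Of the SMADs, Smad7 and Smad1 rose. The inhibitory Smad7 was at 2.56, 2.60 and 2.16 CPM at day 2 and at 7.65, 6.74 and 6.59 CPM in control (1.52 ± 0.20, adjusted p = 7.43e-07 by edgeR). Smad6, the other inhibitory SMAD, was at 3.76 ± 1.37 CPM and 2.62 ± 0.0677 CPM and did not pass. Smad1 rose only from 22.3 to 30.4 CPM (0.45 ± 0.11, adjusted p = 0.00136). Its adjusted p was 0.0108 without day 2 library 1 and 0.043 with only the 2 groups in the fit.

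The secreted modulators Fst and Chrd moved in opposite directions. Fst, which encodes the activin antagonist follistatin, was at 2.96, 2.36 and 1.00 CPM at day 2 and at 0.0642, 0.385 and 0.150 CPM in control (-3.42 ± 0.49, adjusted p = 3.4e-06 by edgeR). Chrd, which encodes the BMP antagonist chordin, was at 1.25, 1.66 and 1.94 CPM and then at 7.07, 7.51 and 8.98 CPM (2.27 ± 0.19, adjusted p = 7.25e-10). Noggin (Nog), another BMP antagonist, was at 0.971 ± 0.418 and 0.916 ± 0.0608 CPM and did not pass. Bmp1, a protease that cleaves chordin and procollagens, rose from 46.0 to 73.3 CPM (0.67 ± 0.17, adjusted p = 0.00159). Its adjusted p was 0.0148 without control library 2, 0.0221 without day 2 library 1 and 0.0191 with only the 2 groups in the fit.

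The 4 Id genes differed in direction between day 2 and day 4. Id3 was at 262, 235 and 224 CPM at day 2 and at 74.6, 86.8 and 84.6 CPM in control (-1.55 ± 0.19, adjusted p = 4.63e-07 by edgeR). Id4 went the other way, from 3.20, 2.86 and 1.12 CPM to 26.7, 10.7 and 11.6 CPM (2.78 ± 0.35, adjusted p = 4.98e-07). Control library 1 held more than the other control libraries, but all 3 lay above all 3 day 2 libraries. Id1 fell from a mean of 33.1 to 16.5 CPM (-1.01 ± 0.24, adjusted p = 0.0012), yet its groups overlapped, since day 2 library 3 was at 19.9 CPM and control library 3 at 20.3 CPM. It did not pass without control library 1 (adjusted p = 0.0127) or day 2 library 1 (0.0106), or with only the 2 groups in the fit (0.0199). Id2 was at 61.0 ± 24.5 and 49.9 ± 11.7 CPM and did not pass, and neither did Bambi at 4.04 ± 0.836 and 5.66 ± 2.04 CPM.

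**Figure D1:**
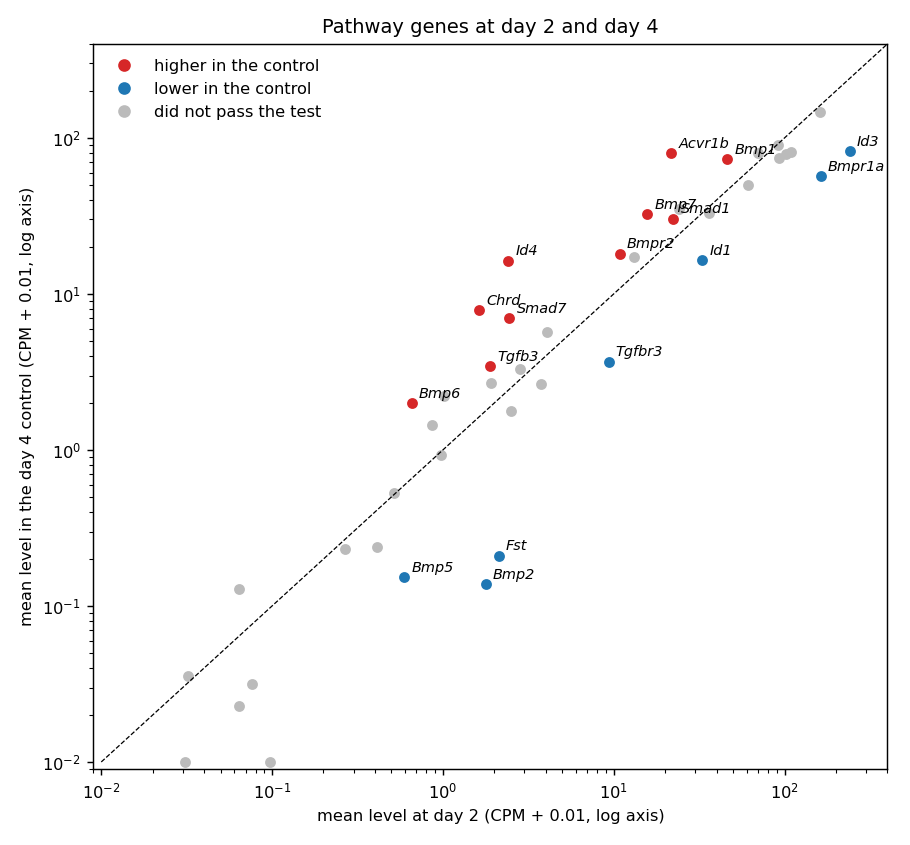
Mean level of each of the 44 genes at day 2 (horizontal axis) and in day 4 control neurons (vertical axis), both as CPM + 0.01 on log axes, with n = 3 libraries per group and the dashed line marking equal levels. The 10 genes that rose (red) lie above the line, with Id4 at 2.40 and 16.3 CPM and Acvr1b at 21.8 and 79.6 CPM, and the 7 that fell (blue) lie below it, with Bmp2 at 1.77 and 0.128 CPM and Fst at 2.11 and 0.200 CPM.

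The next 4 comparisons set each induced line against the same 3 control libraries, so they are not independent of each other. In iHoxc6, which expresses a brachial Hox gene, 1 rose (Bmp1) and 1 fell (Chrdl1), which is 4.55% of the 44 against 0.587% of all genes (0.363% higher and 0.224% lower). Without control library 2, 4 rose and 1 fell, against 5.2% of all genes, the additional 3 being Fstl1, Acvr1 and Smad3. Chrdl1 was beyond a log2 fold change of 2, as were 0.115% of all genes. Bmp1 was at 63.0, 90.2 and 66.7 CPM in control and at 126, 140 and 138 CPM in iHoxc6 (0.88 ± 0.17, adjusted p = 0.00555 by edgeR). The Bmp1 groups did not overlap, but its call was lost without iHoxc6 library 1 (adjusted p = 0.0194), 2 (0.0265) or 3 (0.0318) or control library 1 (0.0472) or 3 (0.0419). With only the 2 groups in the fit it was lost too (0.0214).

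In iHoxc8, both genes that passed fell (Chrdl1 and Id1), 4.55% of the 44 against 2.12% of all genes (1.03% higher and 1.09% lower). Without control library 2, 3 genes rose (Bmp1, Smad4 and Acvr1) and the same 2 fell, against 7.52% of all genes. Without iHoxc8 library 1 or control library 3 neither Chrdl1 (adjusted p = 0.0263 and 0.0186) nor Id1 (0.0263 and 0.0395) passed, and without iHoxc8 library 2 only Chrdl1 did. The medians of the 44 log2 fold changes were 0.05 in iHoxc6 and 0.26 in iHoxc8, against 0.00 and 0.02 over all genes.

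In iHoxc9, which expresses a thoracic Hox gene, 8 of the 44 genes rose and 8 fell, 36.4% against 14.1% of all genes (6.95% higher and 7.13% lower), and without control library 2 it was 9 and 8, against 19.7% of all genes. Without iHoxc9 library 1, 2 or 3 or control library 1, 5 rose, and without control library 3, 2 rose. Those that rose were Bmp1, Bmp3, Bmp7, Tgfb2, Bmpr2, Acvr1, Smad5 and Smad7, and those that fell were Bmp6, Tgfbr2, Smad9, Chrdl1, Bambi, Id1, Id2 and Id3. Beyond a log2 fold change of 2 were 3 of the 44 (Bmp3, Smad9 and Tgfbr2) and 2.7% of all genes, and without control library 2 it was 5 of the 44. The median was 0.33, against 0.00 over all genes. In iHoxc10, which expresses a lumbar Hox gene, 8 rose and 4 fell, 27.3% against 14.4% of all genes (6.67% higher and 7.75% lower). Without control library 2 it was 8 and 5, against 18% of all genes. Without iHoxc10 library 1 or 2 or control library 3, 4 rose, and 2 fell without iHoxc10 library 1 or control library 3. Those that rose were Bmp7, Bmpr2, Acvr1, Acvr1b, Acvr2a, Smad1, Smad7 and Id4, and those that fell were Bmp4, Chrdl1, Id1 and Id3. Beyond a log2 fold change of 2 were 3 of the 44 (Bmp4, Chrdl1 and Id1) and 1.48% of all genes, and 1 of the 44 was without iHoxc10 library 1 or control library 3. The median was 0.20, against 0.00 over all genes.

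**Figure D2:**
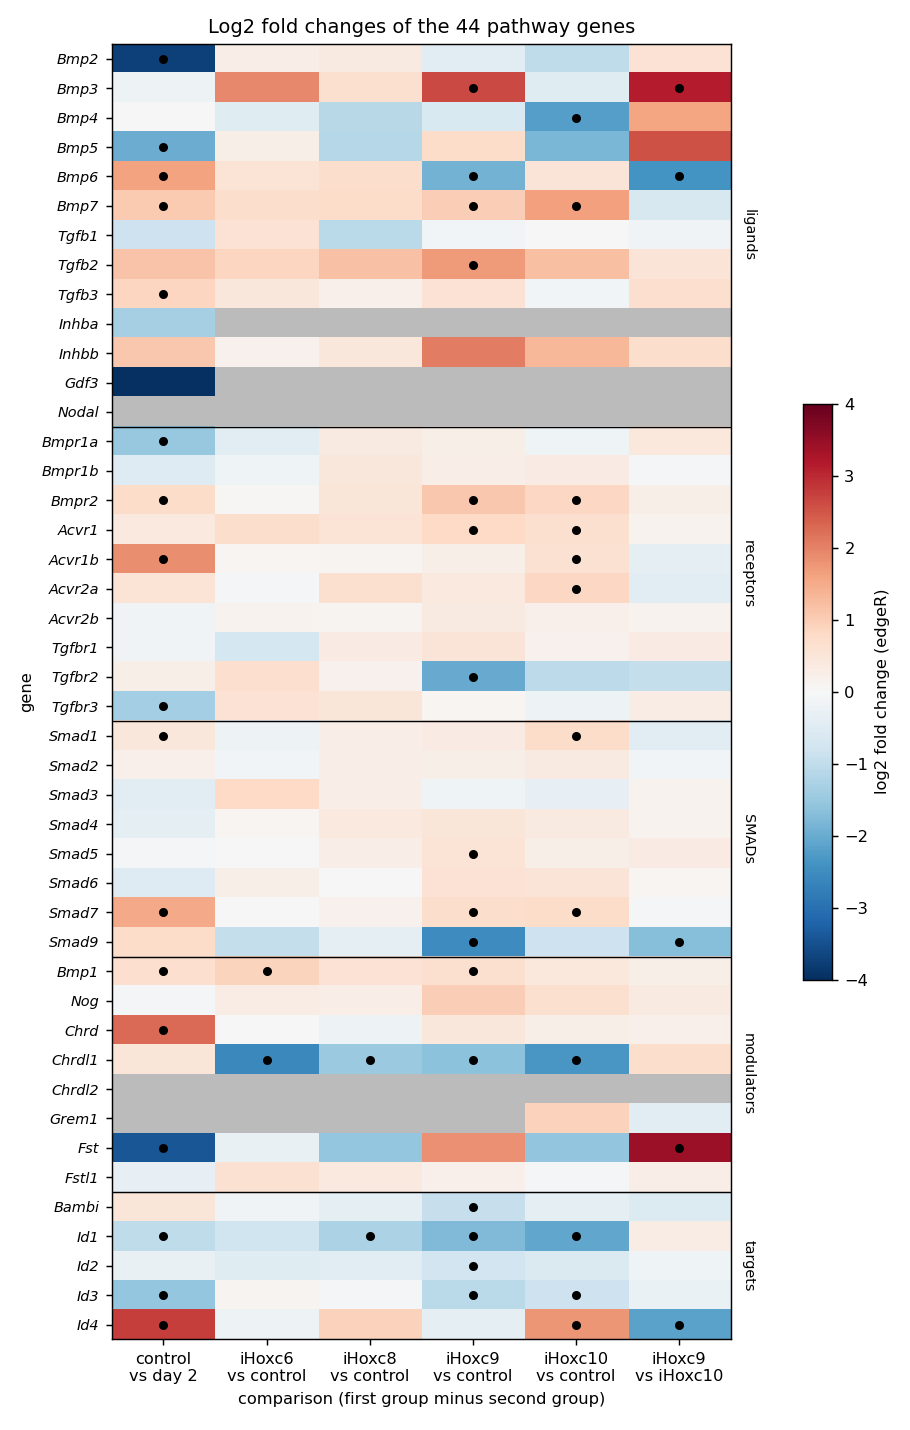
Log2 fold changes by edgeR of the 44 genes (rows, ordered by role) in the 6 comparisons (columns), as the first group minus the second, with red for higher and blue for lower. Black dots mark an adjusted p under 0.01, and grey cells have 3 counts or fewer in every library of both groups. The iHoxc9 and iHoxc10 columns hold 16 and 12 dots and the iHoxc6 and iHoxc8 columns 2 each.

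The ligand Bmp7 rose in iHoxc9 and iHoxc10. Control libraries were at 37.9, 25.5 and 34.1 CPM, iHoxc9 at 64.3, 69.4 and 60.1 CPM and iHoxc10 at 104, 103 and 95.5 CPM. The log2 fold changes were 0.99 ± 0.20 (adjusted p = 0.000823 by edgeR) and 1.63 ± 0.20 (adjusted p = 5.03e-06). Bmp7, Entrez 12162, lies at chr2:172868012-172940321 of GRCm38. In iHoxc6 and iHoxc8 its levels, 53.2 ± 3.11 and 54.5 ± 6.47 CPM, also lay above every control library, but the changes of 0.71 ± 0.20 and 0.74 ± 0.20 did not pass (adjusted p = 0.0486 and 0.0231 by edgeR). The 4 Dox-treated groups thus spanned 47.0 to 104 CPM with no overlap with control.

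Bmp6 and Bmp3 changed in iHoxc9. Bmp6 was at 1.99, 1.58 and 2.36 CPM in control and at 0.391, 0.736 and 0.438 CPM in iHoxc9 (-1.88 ± 0.38, adjusted p = 0.00101 by edgeR), while iHoxc10 was at 2.00, 4.01 and 2.43 CPM. Bmp3, a divergent family member known to oppose other BMPs, was at 0.321, 0.193 and 0.150 CPM in control and at 1.17, 2.03 and 1.03 CPM in iHoxc9 (2.64 ± 0.48, adjusted p = 0.000314). Its iHoxc6 libraries at 0.872, 0.902 and 0.834 CPM were also above control, with a change of 1.93 ± 0.49 that did not pass (adjusted p = 0.0373). Tgfb2 was at 3.21, 1.69 and 1.76 CPM in control and at 8.72, 7.80 and 5.49 CPM in iHoxc9 (1.71 ± 0.34, adjusted p = 0.000859), with an adjusted p of 0.0105 without control library 3. In iHoxc10, where Tgfb2 libraries spread from 2.63 to 6.99 CPM, the change of 1.21 ± 0.34 did not pass (adjusted p = 0.0126), but it did without control library 1 (adjusted p = 0.00589) or iHoxc10 library 3 (0.00181). Bmp4 fell in iHoxc10 at levels near the limit of detection, from a mean of 0.516 to 0.108 CPM (-2.19 ± 0.51, adjusted p = 0.00312). The Bmp4 call was lost without iHoxc10 library 1 (0.0252) or 3 (0.0204) or control library 1 (0.0169) or 3 (0.0164). With only the 2 groups in the fit it was lost too (0.0144).

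The receptors that passed rose, except for Tgfbr2. Bmpr2 was at 19.0, 20.9 and 14.5 CPM in control, at 41.1, 36.1 and 38.6 CPM in iHoxc9 and at 41.3, 27.7 and 28.4 CPM in iHoxc10. All 6 of these induced libraries lay above all 3 control libraries, with log2 fold changes of 1.09 ± 0.23 (adjusted p = 0.00134 by edgeR) and 0.84 ± 0.23 (adjusted p = 0.0093). The iHoxc9 call was lost without control library 3 (0.0169), and the iHoxc10 call without iHoxc10 library 1 (0.0808) or 2 (0.0118) or control library 1 (0.0237) or 3 (0.0572).

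Acvr1, a type I receptor that signals through the BMP SMADs, rose from 17.1 ± 2.97 CPM to 29.7 ± 0.966 CPM in iHoxc9 and 26.7 ± 0.768 CPM in iHoxc10. Its log2 fold changes were 0.79 ± 0.16 (adjusted p = 0.000736 by edgeR) and 0.64 ± 0.16 (adjusted p = 0.0041). The iHoxc9 call was lost without control library 3 (0.0115), and the iHoxc10 call without control library 1 (0.0161) or 3 (0.0314) or iHoxc10 library 1 (0.0141) or 2 (0.0302). With only the 2 groups in the fit the iHoxc10 call was lost too (0.0158). In iHoxc6 and iHoxc8 its changes of 0.70 ± 0.16 and 0.53 ± 0.16 did not pass with all libraries (adjusted p = 0.019 and 0.0371) and passed without control library 2 (0.00309 and 0.00812).

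Both Acvr1b and the activin type II receptor Acvr2a rose in iHoxc10. Acvr1b was at 78.8, 76.6 and 83.4 CPM in control and at 130, 126 and 108 CPM in iHoxc10 (0.61 ± 0.12, adjusted p = 0.000618 by edgeR). The Acvr1b call was lost with only the 2 groups in the fit (0.0117). Acvr2a was at 41.7, 35.6 and 28.0 CPM in control and at 82.1, 54.9 and 51.6 CPM in iHoxc10 (0.84 ± 0.23, adjusted p = 0.00875), with library 1 above the other two. The Acvr2a call was lost without iHoxc10 library 1 (0.0863) or 2 (0.0128) or control library 2 (0.0169) or 3 (0.0554). Part of the Acvr2a exons, 7.84% of bases, is shared with Orc4 on the opposite strand.

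The type II receptor Tgfbr2 fell in iHoxc9. Its libraries were at 3.08, 3.23 and 3.59 CPM in control and at 0.704, 1.24 and 0.438 CPM in iHoxc9 (-2.01 ± 0.36, adjusted p = 0.000312 by edgeR). In iHoxc10 they were at 0.840, 2.69 and 1.22 CPM, and the change of -1.06 ± 0.34 did not pass (adjusted p = 0.0258) but passed without iHoxc10 library 2 (0.00172). Bmpr1a and Bmpr1b passed in none of the 4 lines at this threshold. Their means over the 5 day 4 groups ran from 41.5 to 72.6 CPM for Bmpr1a and from 1.56 to 2.39 CPM for Bmpr1b.

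The BMP-side SMADs did not share a direction. Smad9 was at 1.51, 1.42 and 1.38 CPM in control and at 0.196, 0.294 and 0.239 CPM in iHoxc9 (-2.53 ± 0.29, adjusted p = 1.25e-06 by edgeR), a narrow spread around means of 1.44 and 0.243 CPM. In iHoxc10 it was at 0.817 ± 0.102 CPM and in iHoxc6 at 0.750 ± 0.0589 CPM, with changes of -0.82 ± 0.25 and -0.94 ± 0.25 that did not pass (adjusted p = 0.0195 and 0.043). Smad1 was at 30.3, 29.3 and 31.5 CPM in control and at 54.0, 49.4 and 48.5 CPM in iHoxc10 (0.74 ± 0.11, adjusted p = 4.09e-05). Smad5 was at 89.6 ± 8.36 CPM in control and 132 ± 6.72 CPM in iHoxc9 (0.56 ± 0.13, adjusted p = 0.0041). The Smad5 call was lost without iHoxc9 library 1 (0.0252), 2 (0.0109) or 3 (0.0205) or control library 1 (0.0126) or 3 (0.0393). With only the 2 groups in the fit it was lost too (0.0105).

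The inhibitory Smad7 rose from 6.99 ± 0.572 CPM to 11.5 ± 0.933 CPM in iHoxc9 and 11.8 ± 2.33 CPM in iHoxc10. Its log2 fold changes were 0.71 ± 0.18 and 0.75 ± 0.18 (adjusted p = 0.00638 and 0.00427 by edgeR). The iHoxc9 call did not hold without any 1 of the 6 libraries compared, with adjusted p from 0.0116 without control library 1 to 0.0424 without control library 3. Without iHoxc9 libraries 1, 2 and 3 it was 0.0321, 0.0248 and 0.014, and without control library 2 it was 0.0141. The iHoxc10 call was lost without iHoxc10 library 1 (0.0401) or 2 (0.0206) or control library 2 (0.0108) or 3 (0.021). With only the 2 groups in the fit it was lost too (0.0159). Smad6 was at 3.90 ± 0.895 CPM in iHoxc9 and 3.73 ± 1.11 CPM in iHoxc10 beside 2.62 ± 0.0677 CPM in control. Its changes of 0.58 ± 0.25 and 0.51 ± 0.25 did not pass (adjusted p = 0.0989 and 0.153). Smad2, Smad3 and Smad4 passed in none of the 4 lines with all libraries.

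Chrdl1, which encodes chordin-like 1, a secreted BMP antagonist, fell in all 4 lines, the only 1 of the 44 genes called in each. Control libraries were at 2.31, 2.89 and 2.84 CPM. The libraries were at 0.279, 0.560 and 0.486 CPM in iHoxc6, at 0.858, 0.701 and 1.28 CPM in iHoxc8, at 0.587, 1.06 and 0.916 CPM in iHoxc9, and at 0.490, 0.609 and 0.486 CPM in iHoxc10. The highest of the 12 induced libraries, at 1.28 CPM, thus lay below the lowest control library. In the same order the log2 fold changes were -2.58 ± 0.31, -1.49 ± 0.28, -1.63 ± 0.29 and -2.33 ± 0.30, with adjusted p of 4.61e-05, 0.003, 0.000229 and 1.12e-05 by edgeR. The iHoxc8 call was lost without iHoxc8 library 1 (0.0263) or control library 3 (0.0186). All 4 comparisons use the same control libraries, and all 4 set Dox-treated libraries against untreated ones. Day 2 progenitors, at 2.09, 1.53 and 2.12 CPM, lay above every induced library too. Chrdl1 (Entrez 83453) lies at chrX:143285674-143394263 of GRCm38.

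The antagonists Chrd and Nog did not pass in any line. Nog was at 1.49, 2.41 and 1.55 CPM in iHoxc9, above the control libraries at 0.964, 0.847 and 0.936 CPM (1.00 ± 0.31, adjusted p = 0.0227 by edgeR). Chrd was at 10.8 ± 0.361 CPM in iHoxc9 beside 7.85 ± 1.00 CPM in control (0.46 ± 0.17, adjusted p = 0.0495). Fst, at 0.743, 0.853 and 0.478 CPM in iHoxc9 beside 0.0642, 0.385 and 0.150 CPM in control, changed by 1.83 ± 0.53 (adjusted p = 0.0148) and passed without control library 2 (0.00248). Bmp1 rose in iHoxc9 to 115 ± 9.93 CPM (0.65 ± 0.17, adjusted p = 0.00627). The Bmp1 call was lost without iHoxc9 library 1 (0.01), 2 (0.0258) or 3 (0.0501) or control library 1 (0.0419) or 3 (0.0541). With only the 2 groups in the fit (0.0105) or no filter (0.0121) it was lost too.

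Id1 fell in iHoxc8, iHoxc9 and iHoxc10. Control libraries were at 11.6, 17.5 and 20.3 CPM. The libraries were at 10.4, 7.44 and 10.5 CPM in iHoxc6, at 6.77, 5.74 and 7.91 CPM in iHoxc8, at 5.12, 4.68 and 4.70 CPM in iHoxc9, and at 3.43, 3.30 and 5.10 CPM in iHoxc10. All 12 induced libraries lay below the lowest control library, with iHoxc9 and iHoxc10 the lowest of all. The log2 fold change was -0.80 ± 0.25 in iHoxc6, which did not pass (adjusted p = 0.069 by edgeR), and -1.27 ± 0.25 in iHoxc8 (adjusted p = 0.00417), -1.77 ± 0.26 in iHoxc9 (2.62e-05) and -2.06 ± 0.26 in iHoxc10 (7.82e-06). The iHoxc8 call was lost without iHoxc8 library 1 (0.0263) or 2 (0.0119) or control library 3 (0.0395). Id1 (Entrez 15901) lies at chr2:152736251-152737410 of GRCm38.

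Id3 fell in iHoxc9 and iHoxc10. It was at 74.6, 86.8 and 84.6 CPM in control, at 34.0, 47.3 and 34.8 CPM in iHoxc9 and at 33.4, 55.3 and 50.4 CPM in iHoxc10. The changes were -1.08 ± 0.19 (adjusted p = 0.000281 by edgeR) and -0.82 ± 0.19 (adjusted p = 0.00306), and the latter call was lost without iHoxc10 library 1 (0.0303) or control library 3 (0.0162). In iHoxc6 and iHoxc8 the Id3 libraries ranged from 67.6 to 104 CPM, overlapping control. Id2 fell in iHoxc9 from 49.9 ± 11.7 to 29.1 ± 2.17 CPM (-0.78 ± 0.20, adjusted p = 0.00687). The Id2 call was lost without iHoxc9 library 1 (0.0281), 2 (0.0169) or 3 (0.0201) or control library 1 (0.0382) or 3 (0.0365). In iHoxc10 Id2 was at 33.1 ± 1.48 CPM (-0.59 ± 0.20, adjusted p = 0.0355), and it passed without control library 2 (0.00521).

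Bambi, itself a BMP-induced gene, fell in iHoxc9, from 6.26, 3.39 and 7.34 CPM in control to 2.78, 3.30 and 2.83 CPM (-0.93 ± 0.24, adjusted p = 0.00697 by edgeR). Control library 2 was close to the iHoxc9 libraries. The Bambi call was lost without iHoxc9 library 1 (0.033), 2 (0.0163) or 3 (0.0217) or control library 1 (0.0307) or 3 (0.0601). With only the 2 groups in the fit it was lost too (0.0176). In iHoxc10 it was at 4.31 ± 0.420 CPM (-0.39 ± 0.24, adjusted p = 0.254).

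Id4 rose in iHoxc10 where Id1 and Id3 fell. Control libraries were at 26.7, 10.7 and 11.6 CPM, and iHoxc10 libraries at 62.0, 65.6 and 39.1 CPM (1.76 ± 0.31, adjusted p = 0.000279 by edgeR). In iHoxc9 Id4 was at 15.5, 11.2 and 11.5 CPM, inside the range of control. In iHoxc8, at 35.6, 30.4 and 26.3 CPM, the change of 0.91 ± 0.31 did not pass with all libraries (adjusted p = 0.0698) but passed without control library 1 (0.00752), the control library with the highest Id4.

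**Figure D3:**
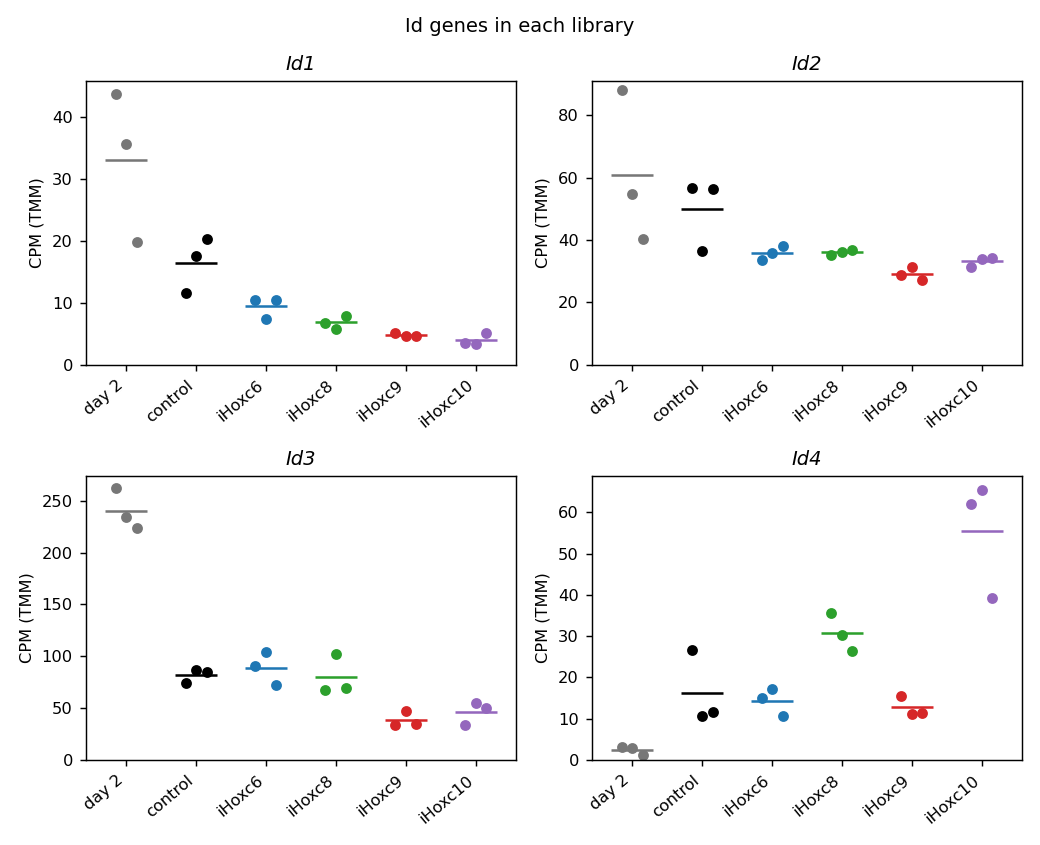
Levels of Id1, Id2, Id3 and Id4 in each of the 3 libraries per group (points) with the group mean (horizontal line), as TMM-normalized CPM on linear axes starting at 0. Id1 is lower in every induced library than in every control library, Id3 is at 33.4 to 55.3 CPM in iHoxc9 and iHoxc10 beside 74.6 to 86.8 CPM in control, and Id4 reaches 39.1 to 65.6 CPM in iHoxc10.

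**Figure D4:**
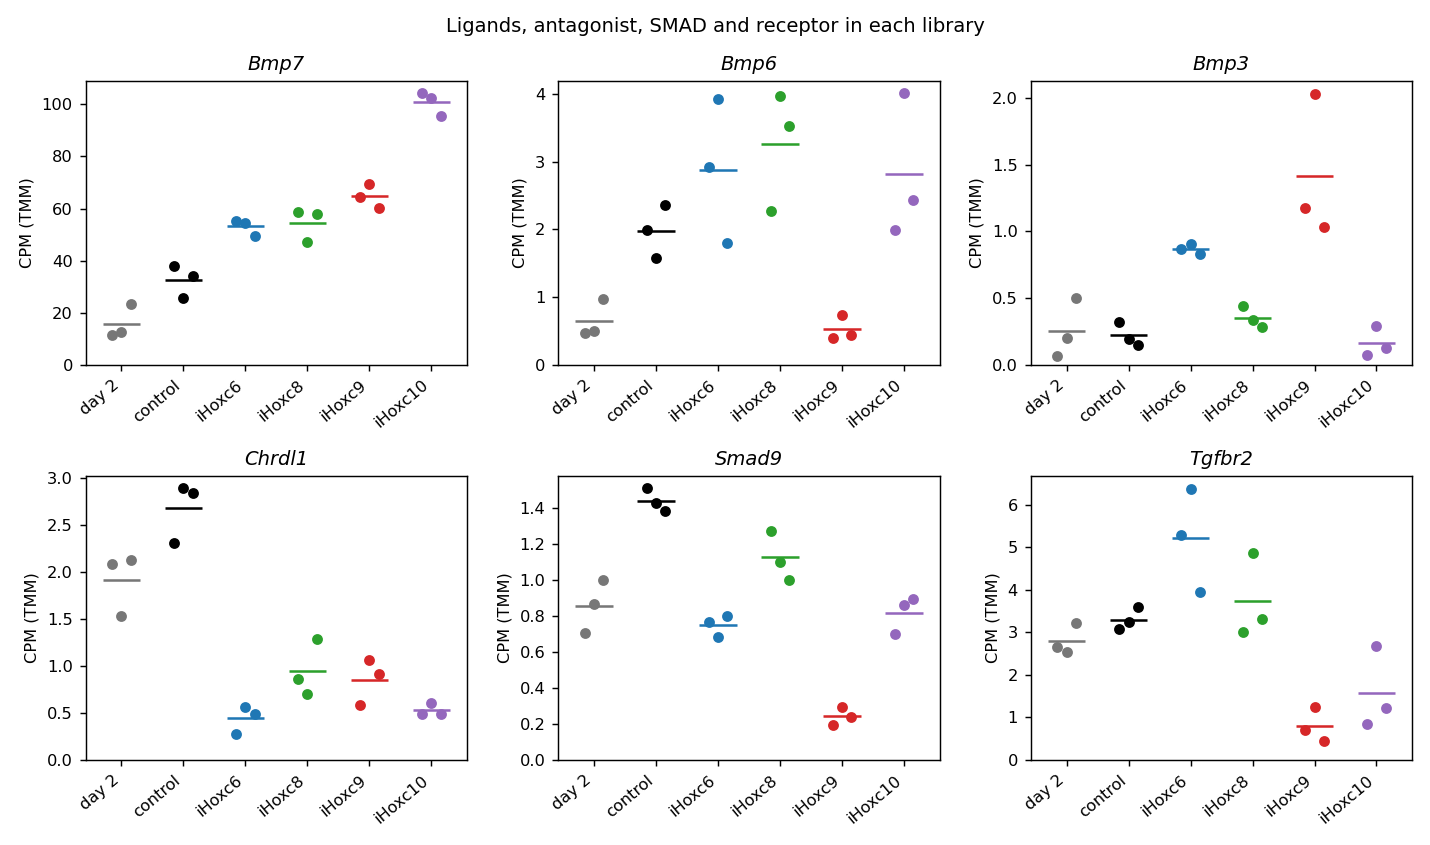
Levels of the ligands Bmp7, Bmp6 and Bmp3, the antagonist Chrdl1, the SMAD Smad9 and the receptor Tgfbr2 in each of the 3 libraries per group (points) with the group mean (horizontal line), as TMM-normalized CPM on linear axes starting at 0. Bmp7 is at 47.0 CPM or more in every induced library, Chrdl1 is at 1.28 CPM or less in all 12, and Bmp6 and Smad9 are lowest in iHoxc9.

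The last comparison set iHoxc9 directly against iHoxc10, thoracic against lumbar, within 1 library name prefix. Of the 44 genes, 2 were higher in iHoxc9 (Bmp3 and Fst) and 3 lower (Bmp6, Smad9 and Id4), 11.4% against 4.99% of all genes (2.6% higher and 2.4% lower). Of these 5, 4 were beyond a log2 fold change of 2, as were 1.31% of all genes. Same-numbered libraries of the 2 groups deviated together, although the labels do not say that equal numbers share a culture. A fit of these 6 libraries with the replicate number as a block called 10 genes higher and 11 lower. In that fit 27.6% of all genes passed. It gave Id4 an adjusted p of 2.27e-192 by edgeR, which 2 residual degrees of freedom per gene cannot yield alone. Its estimate of the spread was thus largely shared over genes, and its SEs and calls may overstate the precision. In a fit of all 18 libraries with the block, 2 were higher and 3 lower, the same 5 genes, against 4.77% of all genes.

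Bmp3 was at 1.17, 2.03 and 1.03 CPM in iHoxc9 and at 0.0700, 0.287 and 0.122 CPM in iHoxc10 (3.13 ± 0.51, adjusted p = 0.000199 by edgeR). Bmp6 was at 0.391, 0.736 and 0.438 CPM in iHoxc9 and at 2.00, 4.01 and 2.43 CPM in iHoxc10 (-2.39 ± 0.38, adjusted p = 0.000143). Id4 was at 15.5, 11.2 and 11.5 CPM in iHoxc9 and at 62.0, 65.6 and 39.1 CPM in iHoxc10 (-2.13 ± 0.32, adjusted p = 7.07e-05). The libraries of the 2 groups did not overlap in any of these 3 genes, which the rule for giving full values required. Library 2 was the highest of its group in both lines for Bmp3 and Bmp6.

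Smad9 and Fst stayed below 1 CPM in both groups and are named because they were among the 5 called, after their values were seen. Smad9 was at 0.196, 0.294 and 0.239 CPM in iHoxc9 and at 0.700, 0.860 and 0.891 CPM in iHoxc10 (-1.71 ± 0.31, adjusted p = 0.000625 by edgeR). Fst was at 0.743, 0.853 and 0.478 CPM in iHoxc9 and had 3 counts or fewer in each iHoxc10 library, so it was at least 6.21-fold higher in iHoxc9, taking 3 counts per library as the limit (adjusted p = 0.00123). The Fst call was lost without iHoxc10 library 3 (adjusted p = 0.0105).

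Further genes passed in fits of these 6 libraries alone, where the SEs with the block may overstate the precision. Without the block, that fit called the same 2 genes higher and 6 lower, adding Bmp7, Smad1 and Acvr1b, against 10.5% of all genes. Bmp7 was at -0.64 ± 0.19 with all 18 libraries (adjusted p = 0.0412 by edgeR), at -0.68 ± 0.09 in the 6 libraries without the block (5.41e-05) and at -0.68 ± 0.06 with it. Smad1 was at -0.42 ± 0.11 (0.0138), -0.45 ± 0.09 (0.00192) and -0.45 ± 0.06 in the same order, and with all 18 libraries it also passed by DESeq2 (5.95e-08), with DESeq2 size factors in edgeR (0.00632) and with at least 10 counts in 3 libraries (0.00366). Acvr1b was at -0.41 ± 0.10 (0.00538) and -0.41 ± 0.05 in the 6 libraries without and with the block. Of the genes that passed with the block and in neither fit without it, Tgfbr2 was at -1.02 ± 0.24, Tgfb3 at 0.64 ± 0.13 and Bmpr1a at 0.40 ± 0.06. Id1 passed in none of these fits, at 0.30 ± 0.27 with all 18 libraries (adjusted p = 0.648).

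**Figure D5:**
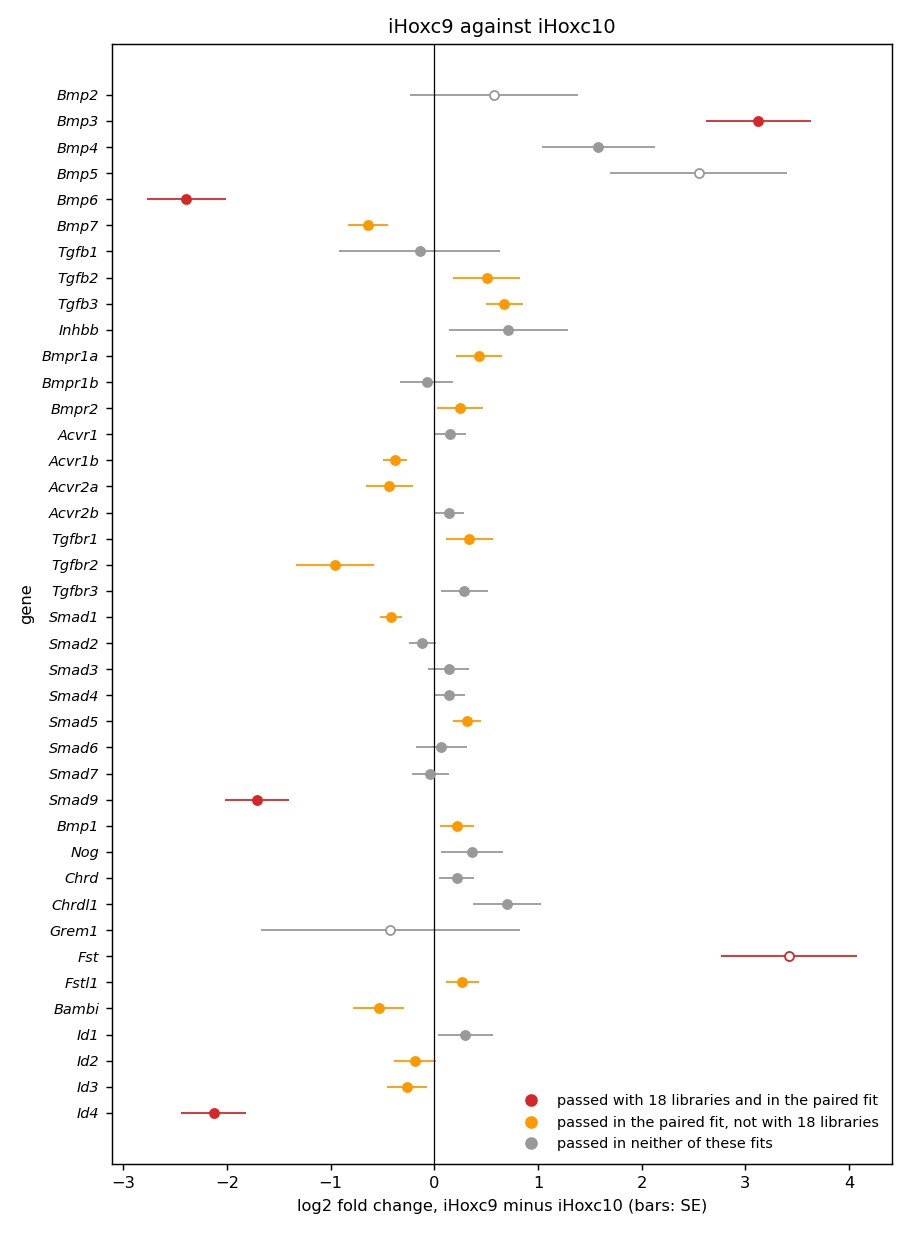
Log2 fold change of iHoxc9 minus iHoxc10 (points) with its SE (bars) from the fit of all 18 libraries without pairing, for the 40 genes with more than 3 counts in any of the 6 libraries. Red genes passed in that fit and in the paired fit of these 6 libraries, orange genes passed in the paired fit and not with 18 libraries, and open points have 3 counts or fewer in every library of a group. Bmp3 and Fst lie at 3.13 and 3.42, and Bmp6, Id4 and Smad9 at -2.39, -2.13 and -1.71. The paired fit may overstate the precision.

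Because Id4 differed between iHoxc9 and iHoxc10 and its promoter is in the RefSeq table, the 250 bases before its start are shown, at chr13:48260866-48261115 of GRCm38.p6 on the plus strand. The capitals mark GGCGCC, a GC-rich SMAD-type motif that matches once in the window. The transcripts A330033J07Rik and Gm49291 are annotated on the opposite strand in this window, and their exons share 2.13% and 4.44% of the exon bases of Id4.
Id4: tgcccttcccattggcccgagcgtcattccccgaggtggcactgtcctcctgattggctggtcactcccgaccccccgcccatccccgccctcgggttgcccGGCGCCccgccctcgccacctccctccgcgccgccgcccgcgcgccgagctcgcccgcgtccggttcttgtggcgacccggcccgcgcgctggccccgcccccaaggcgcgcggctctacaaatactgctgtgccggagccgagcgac

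Promoters were in the table for 28 of the 44 genes. In the 250 bases before the start, on both strands, GGCGCC was present in 9 of the 28 (32.1%) and in 10.8% of 27025 genes, and the SMAD-type letters CAGACA in 4 (14.3%) and 19.3%. The letters TTTAT, found in sites of posterior Hox proteins, were present in 6 (21.4%) and 41.1%, and TGATTTAT, which contains TTTAT and resembles a composite PBX and Hox site, in none of the 28 and in 0.995% of all genes. The 9 with GGCGCC were Bmpr1a, Bmpr2, Chrd, Grem1, Id2, Id4, Smad5, Smad9 and Tgfbr1. These are matches of letters, and whether a factor binds there was not measured.

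A further list of 68 pathway genes was examined, of which 65 were tested (Gdf1, Cfc1 and Cer1 had no count in an induced library). From day 2 to control, 14 rose and 16 fell. In iHoxc9, 14 rose and 4 fell, in iHoxc10 7 rose and 4 fell, in iHoxc8 3 rose, and in iHoxc6 the single gene that passed was Fstl4. The shares were 46.2%, 27.7%, 16.9%, 4.62% and 1.54% of the 65, beside the same percentages of all genes as above. Fstl4, a follistatin-like gene, was at 0.225, 0.308 and 0.262 CPM in control. It was at 1.43, 1.12 and 1.32 CPM in iHoxc6, at 1.48, 1.27 and 1.44 CPM in iHoxc8, at 4.58, 3.30 and 3.58 CPM in iHoxc9, and at 3.68, 4.48 and 3.16 CPM in iHoxc10. It thus rose in all 4 lines, by log2 fold changes of 2.27 ± 0.29, 2.39 ± 0.28, 3.83 ± 0.27 and 3.82 ± 0.27, against the same control libraries. Without control library 2, 6 passed in iHoxc6, 4 in iHoxc8, 18 in iHoxc9, 12 in iHoxc10 and 26 between day 2 and control. In iHoxc10, 4 passed without iHoxc10 library 1, 6 without iHoxc10 library 2, and 5 and 7 without control libraries 1 and 3.

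In iHoxc9, the 18 further genes called included 11 of the 22 extracellular modulators on the list (50%), 8 higher and 3 lower. Of the other roles, 2 of 18 ligands and 1 of 9 receptors and coreceptors passed (11.1% each), against 14.1% of all genes. Intracellular regulators passed in 2 of 7 cases (28.6%) and known targets in 2 of 9 (22.2%). Of the 8 extracellular modulators in the first gene list, 2 passed (25%). Differences between roles were not tested. Tll1, a protease related to BMP1, rose from 0.352 to 2.98 CPM (3.08 ± 0.44, adjusted p = 2.26e-05 by edgeR). Dcn, which encodes the TGF-β binding proteoglycan decorin, fell from 8.96, 2.23 and 13.2 CPM to 1.64, 2.09 and 1.07 CPM (-2.33 ± 0.45), and Ccn2, a TGF-β target, fell from 5.99 to 0.960 CPM (-2.62 ± 0.29). Vwc2l fell by 2.20 and Sost by 2.10 on the log2 scale. The Sost call was lost without iHoxc9 library 1 (adjusted p = 0.0234) or control library 1 (0.0139).

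Between iHoxc9 and iHoxc10, 8 of the 65 were higher in iHoxc9 and 3 lower, 16.9% against 4.99% of all genes. In the fit of 6 libraries 16 passed without the block (24.6% against 10.5% of all genes) and 22 with it (33.8% against 27.6%). Without iHoxc9 library 1 or iHoxc10 library 3, 7 passed. Tll1 was at 2.98 and 0.342 CPM (3.10 ± 0.44), Thbs1, an activator of latent TGF-β, at 6.12 and 0.779 CPM (2.96 ± 0.32), and the TGF-β-induced gene Tgfbi at 2.08 and 0.381 CPM (2.44 ± 0.33). Of the 9 known targets on the list, 1 was higher (Tgfbi) and 1 lower (Ccn2) in iHoxc9. Sost was lower in iHoxc9, at 0.296 and 1.50 CPM (-2.29 ± 0.49, adjusted p = 0.00312 by edgeR). The Sost call was lost without iHoxc9 library 1 (0.0235) or 3 (0.0103) or iHoxc10 library 1 (0.0193) or 3 (0.01).

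From day 2 to control, Pmepa1, a TGF-β-induced feedback inhibitor, rose from 0.944 to 11.8 CPM (3.65 ± 0.19, adjusted p = 2.74e-13 by edgeR), Dcn from 0.186 to 8.14 CPM (5.43 ± 0.59) and Fstl5 from 1.37 to 7.25 CPM (2.41 ± 0.28). Thbs1 fell from 31.8 to 2.37 CPM (-3.74 ± 0.29), Bmper from 1.79 to 0.194 CPM (-3.20 ± 0.40) and Tll1 from 1.86 to 0.352 CPM (-2.41 ± 0.45). Against the limit of 3 counts per library, the TGF-β coreceptor endoglin (Eng) was at least 16.3-fold lower and Vwc2l at least 16.7-fold higher in control.

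Markers of other cells moved with some of these results. Summed floor plate markers were at 298 to 446 CPM in iHoxc9, 455 to 598 CPM in control, 549 to 898 CPM in iHoxc10 and 728 to 1033 CPM in iHoxc6. In iHoxc8 they were at 691 to 780 CPM. Of these 6 markers, 2 were lower in iHoxc9 than in control, and 0 passed in iHoxc6, iHoxc8 or iHoxc10. Between iHoxc9 and iHoxc10, 3 floor plate markers were lower in iHoxc9. Summed motor neuron markers were at 298 to 324 CPM in iHoxc9, 486 to 547 CPM in iHoxc10, 391 to 445 CPM in iHoxc6, 431 to 468 CPM in iHoxc8 and 544 to 571 CPM in control. Of these 7 markers, 1 was higher and 4 lower in iHoxc9 than in iHoxc10. Against control, 4 were lower in iHoxc9, 2 in iHoxc10, 2 in iHoxc8 and 1 in iHoxc6, and 0 were higher. Ventral interneuron markers, 8 genes, summed to 16.2 to 20.4 CPM in control, 11.05 to 13.4 CPM in iHoxc6, 15.9 to 19.5 CPM in iHoxc8, 43.4 to 56.5 CPM in iHoxc9 and 62.9 to 85.8 CPM in iHoxc10. Of these 8, 3 were higher and 2 lower in iHoxc9 than in control, 2 were higher in iHoxc10 than in control, and 3 were higher and 2 lower in iHoxc9 than in iHoxc10. Cycling markers summed to 396 to 502 CPM in iHoxc10, 632 to 709 CPM in iHoxc9 and 470 to 952 CPM in control. Of these 5 markers, 3 were lower in iHoxc10 and 1 lower in iHoxc9 than in control. Neural progenitor markers summed to 1006 to 1203 CPM in iHoxc10, 1368 to 1470 CPM in iHoxc9 and 828 to 1555 CPM in control. Of these 8, 3 were lower in iHoxc10 than in control, and 2 were higher and 2 lower in iHoxc9. Between iHoxc9 and iHoxc10, 1 cycling and 3 progenitor markers were higher in iHoxc9. Neural crest markers summed to 80.4 to 98.4 CPM in iHoxc10 and 70.6 to 74.6 CPM in iHoxc9, beside 30.9 to 63.8 CPM in control. In iHoxc8 they summed to 71.4 to 87.0 CPM and in iHoxc6 to 38.4 to 41.4 CPM. Of these 6 markers, 3 were higher in iHoxc10 than in control, and 1 was higher and 1 lower in iHoxc9. In iHoxc6 and iHoxc8, 0 passed. Mesoderm markers summed to at most 15.1 CPM and endothelial markers to at most 4.28 CPM in every library. The part of these differences in the changes of the pathway genes was not tested.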

How the data were processed

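Read counts were analysed for 18 libraries, 3 in each of 6 groups, assigned from their labels. Per the study's methods and the submitters' processing notes, reads were aligned with STAR (2.7.0c) and assigned to RefSeq genes of mm10 with featureCounts. Rows sharing an Entrez identifier had been merged, and the authors deposited raw counts per gene for each replicate. Picard (2.8.2) is also listed in the notes. The strand setting of the counting is not given in the sources used here, although the kit was stranded, so overlapping genes are named as uncertain. Replicates are described as independent differentiations. Identifiers were matched to symbols for 25275 of 27179.

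Counts were tested in R 4.3.3 with edgeR 4.0.16 (TMM factors, quasi-likelihood fit by group, all 18 libraries together). The 20944 genes counted at least once among the induced libraries were tested. P-values were adjusted by Benjamini-Hochberg over all of them, and genes passed at an adjusted p under 0.01. Standard errors were taken from the F statistic. Log2 fold changes are those of the fit. Where no library of a group exceeded 3 counts, a bound on the fold was computed from 3 counts per library. Replicate pairs of a group differed by more than sampling noise. Exon lengths, overlaps and gene positions came from GENCODE vM21 or RefSeq of GRCm38.

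The 44 genes, the further list of 68 and the marker lists were chosen with earlier results of these data known. Values were given in full for up to 8 genes per comparison, those with the largest change among genes that passed, with a mean of at least 1 CPM in a group and no overlap between groups, and for the Id genes, Smad6, Smad7, Bambi, Nog, Chrd, Bmpr1a, Bmpr1b and Bmpr2. Further genes were given where they passed, and uncalled values of some of these in other lines were added after values were seen. Not every gene that met the rule is reported here.

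Libraries carry replicate numbers 1 to 3 in their labels. The deviations of same-numbered libraries from their group means correlated at 0.58, 0.47 and 0.65 between iHoxc9 and iHoxc10, so these numbers were treated as pairs in a fit of those 6 libraries, added after the data were seen, which leaves 2 residual degrees of freedom per gene. In the other comparisons the correlations ranged from -0.51 to 0.35 and the number was not treated as a pairing. Alternatives were DESeq2 1.42.0 (the authors used 1.20.0), its size factors in edgeR, at least 10 counts in 3 libraries, no filter, only the 2 groups compared, the replicate block, an adjusted p under 0.05 and each library left out in turn. In data simulated for iHoxc9 against control with 20944 genes, the changed genes were drawn from those with a mean above 1 CPM. The test called 85 of 100 genes with a true log2 difference of 1, 100 of 100 with one of 3, and 6 of 20744 unchanged genes. Libraries were simulated independently, so these numbers do not cover changes in genes under 1 CPM or deviations shared by same-numbered libraries. With 3 libraries per group no exact permutation test can give a p under 10%.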

Additional observations from a re-analysis of the deposited data

Results flagged for a closer look

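Of the 44 genes, 5 differed between iHoxc9 and iHoxc10 neurons. The test was that of the difference itself, which with shared control libraries is the direct comparison of the lines. The log2 fold changes of iHoxc9 minus iHoxc10 were 3.13 for Bmp3, 3.42 for Fst, -2.39 for Bmp6, -2.13 for Id4 and -1.71 for Smad9. Relative to control, Bmp3 and Smad9 passed in iHoxc9, Bmp6 passed in iHoxc9, and Id4 passed in iHoxc10. Groups of 3 libraries are too small for a test of outlying samples.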

How the results depend on the processing

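Of the values given for single genes, 579 kept their direction and their side of the threshold under the alternatives that kept all libraries of the groups compared, 12 came past the threshold and 21 no longer passed. With a library left out, the numbers were 510, 8 and 82, and no value that passed changed sign. The causes of the changes below were not tested, except that an adjusted p under 0.05 is a looser threshold by construction and that the fits of 2 groups use fewer libraries.

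With DESeq2, 2 of the 44 genes were higher in iHoxc6 than in control, and 5 were lower in iHoxc9 than in iHoxc10, and of the further pathway genes 5 passed in iHoxc6 and 5 in iHoxc8. With only the 2 groups compared, 0 were higher in iHoxc6 by edgeR (Bmp1 had an adjusted p of 0.0214), 5 were higher in iHoxc10 than in control, 5 were higher in control than at day 2, and 6 were lower in iHoxc9 than in iHoxc10. In the same order, 0.22%, 10.7%, 28.3% and 10.5% of all genes passed in either direction in those fits. At an adjusted p under 0.05, 6 were higher and 2 lower in iHoxc6, 4 were higher in iHoxc8, 15 were higher in iHoxc9, 7 were lower in iHoxc10, and 6 were lower in iHoxc9 than in iHoxc10. The share of all genes by DESeq2 or at an adjusted p under 0.05 is not given here. Those counts therefore show how calls move with the setting and are no result about the pathway genes.

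When replicate numbers entered as a block across all 18 libraries, 1 gene was higher and 1 lower in iHoxc6, 2 were lower in iHoxc8, 8 were higher and 8 lower in iHoxc9, 7 higher and 5 lower in iHoxc10 (Tgfbr2 passed and Bmpr2 did not), 10 higher and 7 lower in control than at day 2, and 2 higher and 3 lower in iHoxc9 than in iHoxc10. In the same order, 0.592%, 1.62%, 13.5%, 13.8%, 41.6% and 4.77% of all genes passed in that fit. The labels do not say in any comparison that libraries of equal number share a culture. The pairing of iHoxc9 with iHoxc10 rests on the correlations seen in these data. In the paired fit of iHoxc9 and iHoxc10 alone, with the replicate block, 10 were higher and 11 lower, and 22 of the further genes passed, against 27.6% of all genes.

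With each library left out in turn, the number of the 44 genes higher and lower ranged from 0 to 4 and stayed at 1 in iHoxc6, from 0 to 3 and from 0 to 2 in iHoxc8, from 2 to 9 and from 6 to 8 in iHoxc9, from 4 to 9 and from 2 to 5 in iHoxc10, from 7 to 12 and from 5 to 8 in control against day 2, and from 1 to 2 and at 3 in iHoxc9 against iHoxc10. The share of all genes called moved too, in iHoxc6 from 0.587% with all libraries to 5.2% without control library 2. For the other libraries left out, the share of all genes is not given here. The number of the 44 beyond a log2 fold change of 2 ranged from 2 to 5 in iHoxc9 and from 1 to 3 in iHoxc10. The further pathway genes that passed ranged from 1 to 6 in iHoxc6, from 4 to 12 in iHoxc10 and from 7 to 8 in iHoxc9 against iHoxc10. At this depth, changes in genes near 3 counts per library were not detectable.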
